A study of Homo sapiens with 6 samples.

Results

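The genes described here are 10 immediate early and growth factor feedback genes, IER3, ERRFI1, IER2, FOS, JUN, JUNB, EGR1, KLF6, MYC and DUSP1, among the 57500 genes counted in RNA of mitochondria isolated from HepG2 cells. They were chosen by symbol, with earlier values of these libraries in view, and each symbol matched 1 gene in every library. HepG2 is an established human hepatocellular carcinoma line, here labelled wild type, and GenX is a fluorinated ether acid used in place of perfluorooctanoic acid. Cells were exposed for 48 h to 0 µM GenX (DMSO vehicle only), 10 µM GenX or 100 µM GenX, with 2 libraries at each dose and 6 in all, and every group is the same line under 1 batch label. The labels do not say whether the 2 libraries of a dose came from separate cultures, so each test measures only the spread between these libraries, which may be technical.

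Immediate early genes are transcribed within minutes of a stimulus such as a growth factor or stress, from factors that the cell already holds, and many of their mRNAs are short-lived. FOS, JUN and JUNB are subunits of the dimeric transcription factor AP-1, and EGR1, KLF6 and MYC are transcription factors of other families. ERRFI1 and DUSP1 act as brakes: ERRFI1 (also called MIG6) binds and inhibits the kinase domain of the epidermal growth factor receptor (EGFR), and DUSP1 dephosphorylates MAP kinases. None of these RNAs is encoded in mitochondrial DNA, so in a mitochondrial preparation they are read among the nuclear-encoded transcripts that came with it.

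The genes are compact, and the span of 9 of the 10 (90%) was under 10 kb, against 18.4% of the 3050 protein-coding genes tested. Their median span was 3683 bases, against 34586.5 bases for those genes. The promoters shown here are those of ERRFI1, JUNB, EGR1 and DUSP1, because theirs are the windows that overlap no annotated exon. They include the EGFR inhibitor that had the most counts at 100 µM and EGR1, the gene that was lower at 100 µM than in control 1. Each is the 250 bases before the annotated start (RefSeq, GRCh38.p14), 5′ to 3′ on the gene's strand, and 8 of the 10 genes matched an entry in that table. The windows are chr1:8026310-8026559 on the minus strand for ERRFI1, chr19:12791236-12791485 on the plus strand for JUNB, chr5:138465229-138465478 on the plus strand for EGR1 and chr5:172771196-172771445 on the minus strand for DUSP1. Capitals mark matches to 5 motifs, searched on both strands. The first motif, TGACG, is the core of the cAMP response element. The full element, TGACGTCA, was searched in the looser form TGACNTCA, which can overlap a match to the core. The AP-1 site was searched as TGANTCA. The CArG box is the site of serum response factor, and the last motif is the TATA box, searched as TATAAA.
ERRFI1: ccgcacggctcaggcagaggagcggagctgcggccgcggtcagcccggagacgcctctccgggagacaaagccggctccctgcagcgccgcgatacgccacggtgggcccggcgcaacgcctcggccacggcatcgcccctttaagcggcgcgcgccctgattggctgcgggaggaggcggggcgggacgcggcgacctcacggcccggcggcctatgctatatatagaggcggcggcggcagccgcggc
JUNB: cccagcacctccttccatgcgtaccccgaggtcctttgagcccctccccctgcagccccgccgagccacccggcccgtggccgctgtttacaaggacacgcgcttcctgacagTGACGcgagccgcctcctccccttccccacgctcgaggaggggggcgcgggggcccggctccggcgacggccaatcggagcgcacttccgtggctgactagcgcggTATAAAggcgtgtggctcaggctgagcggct
EGR1: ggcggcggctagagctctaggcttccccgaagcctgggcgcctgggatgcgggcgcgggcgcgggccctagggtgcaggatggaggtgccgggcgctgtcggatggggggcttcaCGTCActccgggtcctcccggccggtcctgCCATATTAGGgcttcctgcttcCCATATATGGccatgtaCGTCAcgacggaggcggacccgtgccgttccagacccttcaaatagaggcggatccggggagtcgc
DUSP1: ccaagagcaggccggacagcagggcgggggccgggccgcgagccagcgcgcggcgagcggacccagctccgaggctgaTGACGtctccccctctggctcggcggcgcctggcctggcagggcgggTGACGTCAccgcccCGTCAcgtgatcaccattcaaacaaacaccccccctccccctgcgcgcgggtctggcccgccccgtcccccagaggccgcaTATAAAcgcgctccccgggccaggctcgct

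The EGR1 window held 2 CArG boxes, from 105 and from 83 bases before the start, and 2 matches to TGACG. The DUSP1 window held 4 matches to TGACG, 1 match to TGACNTCA and a TATAAA from 30 bases before the start. Of the 4, 2 are the 2 strands of that same TGACNTCA match, which reads alike on both. The JUNB window held 1 TGACG and a TATAAA from 31 bases before the start, and the ERRFI1 window held no match to any of the 5 motifs. Over the 8 genes with a promoter entry, TGACG was found in 6, against 21.2% of 34788 promoter windows of the same length. TGACNTCA was found in 3, against 6.84% of windows, and TATAAA in 3, against 10.8%. The match to TGACNTCA was TGACGTCA in DUSP1 and TGACATCA in JUN and KLF6. The CArG box was found in 1, against 1.17% of windows, and TGANTCA in 0, against 6.59%. These matches describe letters in a window and are not evidence of binding.

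Depth differed widely between libraries. Total counts were 240683 and 60854 in control 1 and control 2. They were 43556 and 29350 at 10 µM and 2141282 and 1338397 at 100 µM. Genes of mitochondrial DNA took 4.35% and 10.4% of the counts in control libraries, 43.7% and 61.1% at 10 µM, and 3.58% and 3.32% at 100 µM. Levels are therefore given as nuclear CPM, which is CPM taken over the counts on nuclear-encoded genes of the same library alone. On that scale 3 counts, used here as the lower limit of a level, are worth 13.0 and 55.0 in control libraries, 122 and 263 at 10 µM, and 1.45 and 2.32 at 100 µM. Counting intervals are 95% exact and cover counting error only. Libraries of 1 dose differed from each other by more than counting noise, with chi-square per degree of freedom of 39.4 for the controls, 12.9 at 10 µM and 35.2 at 100 µM.

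Together the 10 genes made up a larger share of the nuclear-encoded counts at 100 µM than in either control and a smaller share at 10 µM. The summed share was 0.337% in control 1 (interval 0.313 to 0.361) and 0.294% in control 2 (0.250 to 0.343). It was 0.0694% (0.0404 to 0.111) and 0.0701% (0.0303 to 0.138) at 10 µM, from 17 and 8 counts, and 0.735% (0.723 to 0.746) and 0.754% (0.739 to 0.769) at 100 µM, from 15166 and 9760 counts. The groups did not overlap. The pooled share at 100 µM was 2.26 times that of the controls (interval 2.12 to 2.42), 2.20 times that of control 1 alone and 2.53 times that of control 2 alone. At 10 µM it was 4.72-fold lower than in the controls (3.18 to 7.33), with 25 counts seen where the control share would give 118. Because the genes were picked with these values known, the shares are a description and carry no test. In RNA pooled from many cells, fewer cells of a kind and less RNA per cell cannot be told apart.

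**Figure D1:**
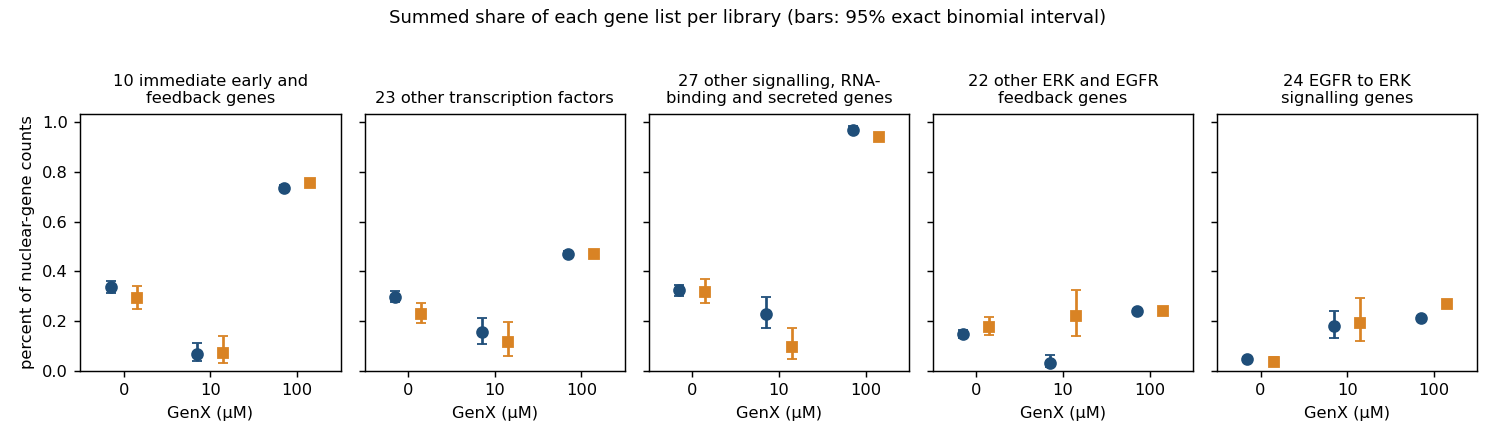
Summed share of the counts on nuclear-encoded genes (percent) in each of the 6 libraries, for the 10 immediate early and feedback genes and the other lists. Circles are replicate 1 and squares replicate 2 at each dose, with 95% exact counting intervals. The 10 genes lie at 0.337% and 0.294% in control libraries, 0.0694% and 0.0701% at 10 µM, and 0.735% and 0.754% at 100 µM.

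Marker RNAs also differed between the groups. The nuclear-retained RNAs MALAT1, NEAT1 and KCNQ1OT1 summed to 14.6% and 6.23% of nuclear-encoded counts in control libraries, 0.163% and 0.140% at 10 µM, and 3.63% and 3.27% at 100 µM. The 11 hepatocyte markers summed to 0.626% and 1.51% in control libraries, 0.0775% and 0.0351% at 10 µM, and 1.14% and 1.12% at 100 µM. In the control and 100 µM libraries most of these counts were on APOA2. Both 100 µM libraries were higher than both controls for 5 of the 11 and lower for 1, TF. Of these 11, 7 and 6 had a count in control libraries, 7 and 2 at 10 µM, and 11 and 9 at 100 µM, and AFP, which encodes alpha-fetoprotein, was at 0 in the controls and at 10 µM. Of 4 leukocyte markers, PTPRC, CD68 and CD3E were at 0 in all 6 libraries and CD14 was counted at 100 µM alone, with 17 and 39 counts. Of 3 endothelial markers, CDH5 was at 0 throughout, VWF had 4 counts in control 2 and PECAM1 had 2 in the second 100 µM library. The 4 stromal markers, most of whose counts in every library were on COL1A1, summed to 0.0222% and 0.0165% in control libraries, 0.0408% and 0.0526% at 10 µM, and 0.00392% and 0.00332% at 100 µM. This order is opposite to that of the 10 genes, but the 10 µM shares rest on 10 and 6 counts. The interval of the first 10 µM library, 0.0196 to 0.0750, overlaps that of control 1, 0.0165 to 0.0291. The part of depth, of the mitochondrial share and of these marker RNAs in the results on the 10 genes was not tested.

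Among the AP-1 subunits, all 3 had their highest levels at 100 µM, and the 2 controls disagreed about each of them. FOS (ENSG00000170345, chromosome 14, 75278774 to 75282230, plus strand, GRCh38) had 28 and 0 counts in control libraries, 3 and 0 at 10 µM, and 812 and 488 at 100 µM. These are 122 and 0 nuclear CPM, then 122 and 0, then 393 and 377. Control and 10 µM libraries covered the same range, and both 100 µM libraries were above all of them. Pooled, FOS was 3.94-fold higher at 100 µM than in the controls (interval 2.71 to 5.95), 3.18-fold higher than in control 1 alone and at least 7.03-fold higher than in control 2 alone, which is at 0 and is set to 3 counts.

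JUN (ENSG00000177606, chromosome 1, 58780788 to 58784327, minus strand, a gene of 1 exon) had 9 and 30 counts in control libraries, 3 and 2 at 10 µM, and 1204 and 1115 at 100 µM. These are 39.1 and 550.4 nuclear CPM in control libraries, 122 and 175 at 10 µM, and 583 and 862 at 100 µM. Control 1 was below both 10 µM libraries and control 2 stood close to the lower 100 µM library. The 10 µM libraries rest on 3 and 2 counts. Their pooled ratio to control 1 was 3.56 (interval 0.938 to 11.8), which includes no difference. The pooled level at 100 µM was 17.7-fold that of control 1 (interval 9.29 to 38.7) but 1.25-fold that of control 2 (0.876 to 1.86), an interval that includes no difference. Between the controls themselves, JUN was 14.1-fold lower in control 1 than in control 2 (6.52 to 33.7).

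JUNB (ENSG00000171223, chromosome 19, 12791496 to 12793315, plus strand, 1 exon), which pairs with FOS proteins as JUN does, split the controls the other way. It had 78 and 2 counts in control libraries, 1 and 1 at 10 µM, and 1043 and 640 at 100 µM, which are 339 and 36.7, then 40.8 and 87.7, then 505 and 495 nuclear CPM. Control 2 was below both 10 µM libraries, and control 1 was above them but below both 100 µM libraries. At 100 µM, JUNB was 1.48-fold higher than in control 1 (1.18 to 1.88) and 13.7-fold higher than in control 2 (3.77 to 113, on 2 counts). The gene HOOK2 overlaps JUNB on the other strand. It had 6 and 0 counts in control libraries, none at 10 µM, and 14 and 23 at 100 µM, and since the strand setting of the counting is not given in the sources used here, reads of the pair may have been shared.

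**Figure D2:**
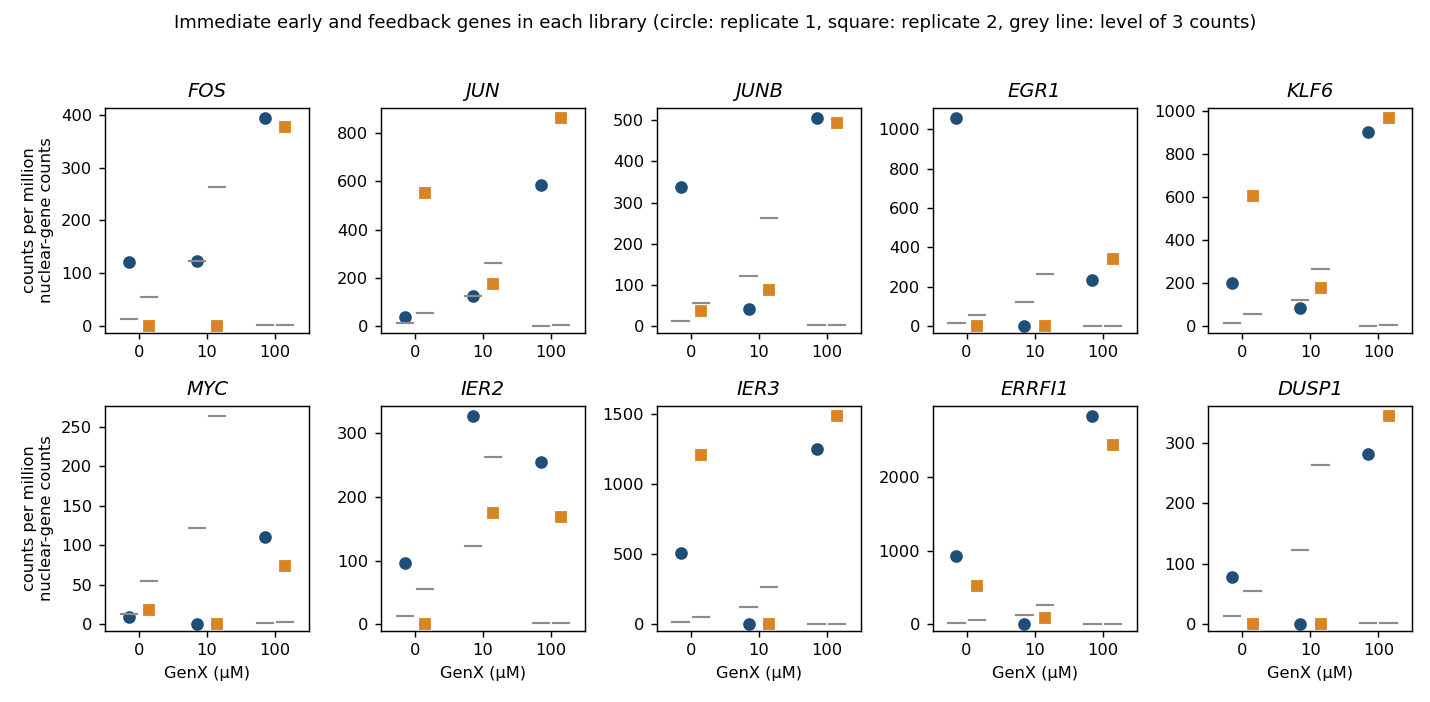
Nuclear CPM of each of the 10 genes in the 6 libraries, with 0 µM, 10 µM and 100 µM in order of dose. Circles are replicate 1 and squares replicate 2, and grey lines mark the level that 3 counts give in that library. ERRFI1 reaches 2823 and 2433 at 100 µM, while EGR1 has its highest point, 1056, in control 1 and is at 0 in control 2.

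EGR1, a zinc finger factor switched on by serum and by EGFR and ERK signalling, was the exception among the 10. EGR1 (ENSG00000120738, chromosome 5, 138465490 to 138469315, plus strand) had 243 counts in control 1 and 0 in control 2, 0 and 0 at 10 µM, and 486 and 439 at 100 µM, which are 1056 and 0, then 0 and 0, then 235 and 339 nuclear CPM. Both 100 µM libraries therefore lay between the 2 controls. Its level at 100 µM was 3.83-fold lower than in control 1 (interval 3.31 to 4.42) and at least 5.00-fold higher than in control 2. Between the 2 libraries of the same dose, EGR1 was at least 19.2-fold higher in control 1 than in control 2. Against control 1 alone, EGR1 at 10 µM was at least 12.6-fold lower, and the 10 µM libraries would have held 20.9 and 9.73 counts at the pooled control level. Of the 8 windows searched, each 250 bases long, only that of EGR1, printed above, held an exact match to the CArG box.

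KLF6, a Krüppel-like zinc finger factor, was higher in both 100 µM libraries than in both controls and lower in both 10 µM libraries. KLF6 (ENSG00000067082, chromosome 10, 3775996 to 3785281, minus strand) had 46 and 33 counts in control libraries, 2 and 2 at 10 µM, and 1866 and 1250 at 100 µM, which are 199.8 and 605, then 81.6 and 175, then 904 and 966 nuclear CPM. The groups did not overlap. The pooled ratio of 100 µM to control was 3.34 (interval 2.67 to 4.24), with 4.64 against control 1 and 1.53 (1.09 to 2.23) against control 2. At 10 µM it was 2.49-fold lower than in the controls, and the interval, 0.935 to 9.37, includes no difference. In the second 10 µM library 3 counts would be worth 263, above the level in control 1.

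MYC, a factor that drives growth and ribosome production, was close to the limit of counting outside the 100 µM libraries. MYC (ENSG00000136997, chromosome 8, 127735434 to 127741434, plus strand) had 2 and 1 counts in control libraries, 0 and 0 at 10 µM, and 228 and 96 at 100 µM, or 8.69 and 18.3, then 0 and 0, then 110.4 and 74.2 nuclear CPM. Both 100 µM libraries lay above both controls. The ratio of 9.16 to the controls rests on 3 control counts and has an interval of 3.10 to 44.6. At 10 µM the limit of 3 counts, 83.5 nuclear CPM for the 2 libraries pooled, is above the control level, so a difference was not detectable at this depth.

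IER2 and IER3, a nuclear regulator and a short-lived protein tied to cell survival, behaved differently at 10 µM. IER2 (ENSG00000160888, chromosome 19, 13150415 to 13154908, plus strand) had 22 and 0 counts in control libraries, 8 and 2 at 10 µM, and 526 and 219 at 100 µM, which are 95.6 and 0, then 326 and 175, then 255 and 169 nuclear CPM. It was the only 1 of the 10 with both 10 µM libraries above both controls, and the 10 µM and 100 µM libraries overlapped. The second 10 µM library rests on 2 counts, and with CPM of all counts, mitochondrial genes included, the 10 µM libraries were no longer both above the controls. The 10 counts at 10 µM stand against 2.77 at the pooled control level, a ratio of 3.60 (interval 1.52 to 7.93). At 100 µM the ratio to the controls was 2.87 (1.88 to 4.61) and the ratio to 10 µM was 0.797 (0.431 to 1.67).

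IER3 (ENSG00000137331, chromosome 6, 30743199 to 30744554, minus strand) had 117 and 66 counts in control libraries, 0 and 0 at 10 µM, and 2592 and 1921 at 100 µM. The nuclear CPM were 508 and 1211 in control libraries, 0 and 0 at 10 µM, and 1255 and 1485 at 100 µM. Neither 10 µM library had a read where the pooled control level would give 15.8 and 7.33 counts, so IER3 was at least 7.69-fold lower at 10 µM. Control 2 came close to the 100 µM libraries, and the ratio of 100 µM to control was 2.64 (interval 2.20 to 3.20) for control 1 and 1.11 (0.870 to 1.44) for control 2. Against 10 µM, IER3 was at least 16.1-fold higher at 100 µM.

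Of the feedback genes, ERRFI1 was the most counted of the 10 at 100 µM and was higher there than in each control. ERRFI1 (ENSG00000116285, chromosome 1, 8004404 to 8026308, minus strand) had 212 and 28 counts in control libraries, 0 and 1 at 10 µM, and 5828 and 3148 at 100 µM, which are 921 and 514, then 0 and 87.7, then 2823 and 2433 nuclear CPM. The 3 doses did not overlap. Mean levels were 2628 ± 276 nuclear CPM at 100 µM and 717 ± 288 in the controls (SD, n = 2 each). The ratio of 100 µM to control was 3.17 (interval 2.79 to 3.62), with 2.90 against control 1 and 5.20 (3.60 to 7.83) against control 2. At 10 µM it was 30.3-fold lower than in the controls (5.38 to 1201, on 1 count), where 20.7 and 9.61 counts would be seen at the control level.

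DUSP1 (ENSG00000120129, chromosome 5, 172768090 to 172771195, minus strand) had 18 and 0 counts in control libraries, none at 10 µM, and 581 and 444 at 100 µM. These are 78.2 and 0 nuclear CPM in control libraries, 0 and 0 at 10 µM, and 281 and 343 at 100 µM. Both 100 µM libraries were above both controls, 3.90-fold for control 1 and at least 5.54-fold for control 2. At 10 µM no fold is given, because 3 counts there exceed the control level. DUSP1 shares with EGR1 a count in control 1, none in control 2 and none at 10 µM, but unlike EGR1 it was higher at 100 µM than in control 1.

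**Figure D3:**
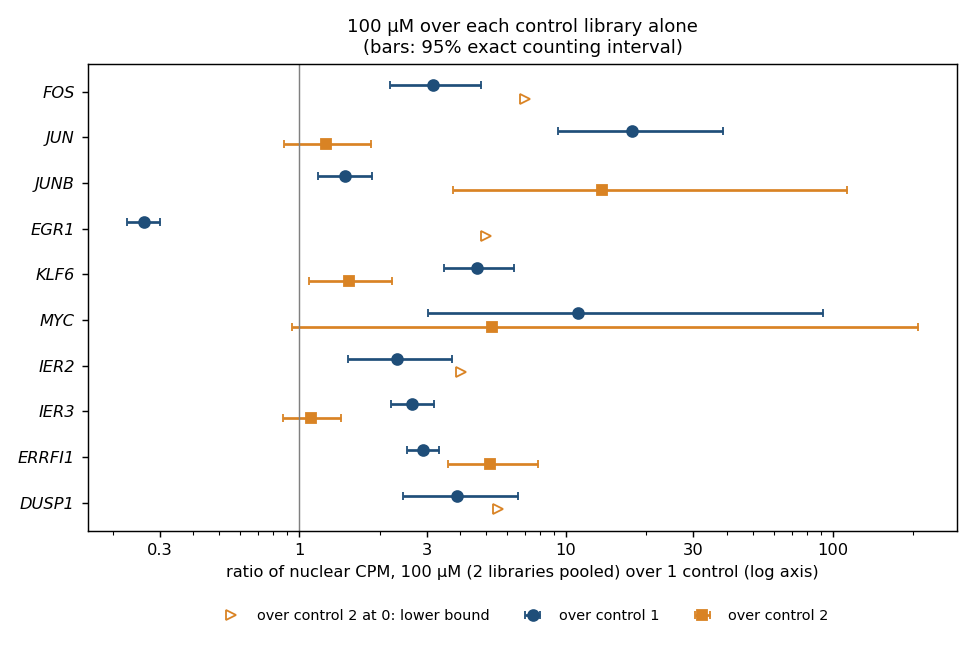
Ratio of nuclear CPM, the 2 libraries at 100 µM pooled over 1 control library alone (log axis). Circles are over control 1 and squares over control 2, with 95% exact counting intervals, and open triangles are lower bounds where control 2 is at 0. EGR1 is at 0.261 over control 1 and at least 5.00 over control 2, and JUN is at 17.7 and 1.25.

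Counted over the list, both 100 µM libraries were higher than both controls for 9 of the 10 genes, all but EGR1, and lower for 0. Across the 3145 nuclear genes tested, 48.3% were higher in this way and 9.57% lower. A gene could pass the low-count filter through the 100 µM libraries alone, as MYC did. For such a gene, being higher at 100 µM was set by the filter, and the background share holds such genes too. With control 1 alone, 9 were higher and EGR1 was lower, and with control 2 alone all 10 were higher. The background shares were 62.3% higher and 26.4% lower for control 1 and 67.2% higher for control 2. The median pooled ratio on the log2 scale was 1.70 over the 10 genes and 1.04 over the 3107 genes with a ratio. For 10 µM against control, 4 genes were lower in both libraries, IER3, ERRFI1, KLF6 and MYC, and 1, IER2, was higher, where 32.0% and 11.1% of genes were. MYC is below the limit of counting in that comparison. KLF6 rests on 2 and 2 counts at 10 µM, and IER2 on 2 counts in the second 10 µM library. Between the exposed groups, both 100 µM libraries were above both 10 µM libraries for 9 genes, all but IER2, and below them for 0, where 63.8% and 7.63% of genes were, and nothing is read from this count because the contrast served in choosing the genes.

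The edgeR quasi-likelihood test was fitted over 3180 genes, and all 10 genes passed its filter on low counts. For 100 µM against control it called 0 of the 10 and 0 of 3180 genes (0.0%) at a Benjamini-Hochberg adjusted 0.05. At an unadjusted 0.05 it had 0 of the 10 and 573 (18.0%) of all genes, and the DESeq2 Wald test called 0 of the 10 and 205 of all. The fitted log2 fold change, scaled by the trimmed mean of M-values, was 1.21 ± 1.13 (SE) for ERRFI1, 2.04 ± 1.74 for DUSP1, 1.74 ± 1.86 for FOS, 1.05 ± 1.44 for JUN and -1.73 ± 1.92 for EGR1. That for IER3 was 0.24 ± 1.12 and turns negative, to -0.33, with DESeq2 size factors. The median over the 10 genes in that fit was 1.13, against 0.35 over all genes. With DESeq2's size factors these medians were 0.57 and -0.13, and for unscaled library sizes 1.68 and 1.02. For 10 µM against control edgeR called 0 of the 10 and 0.597% of all genes (0.22% higher and 0.377% lower), with 3 of the 10 at an unadjusted 0.05, where 28.1% of all genes were. The DESeq2 Wald test called 2 of the 10 and 397 of the 3180. For 100 µM against 10 µM edgeR called 2 of the 10 higher, IER3 and ERRFI1, and 0 lower. Of all genes it called 2.86%, 0.755% higher and 2.11% lower. This contrast served in choosing the genes and the count supports nothing. The 2 calls rest on 10 µM libraries with 0 and 1 counts, and 0 of the 10 were called with DESeq2 size factors or without the first 10 µM library or either 100 µM library. Leaving out a control raised the calls, in a fit that takes the lone control to vary like the other groups. Without control 1 that fit tested 2888 genes, 9 of the 10 among them, and without control 2 it tested 6870 genes and all 10. In the comparison of 100 µM with control it called 103 genes without control 1 and 204 without control 2, with 0 of the genes described here each time. For 10 µM against control it called 361 genes, with 3 of the 9, without control 1 and 861, with 4 of the 10, without control 2. Between 100 µM and 10 µM it called 1041 genes, with 7 of the 9, without control 1 and 1272, with 8 of the 10, without control 2.

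EGR1 held the most of the counts on the 10 genes in control 1, IER3 in control 2 and ERRFI1 in both 100 µM libraries. In control 1, EGR1 made up 31.4% of the counts on the 10 genes (interval 28.1 to 34.8), ERRFI1 27.4% and IER3 15.1%. In control 2, IER3 made up 41.2% (33.5 to 49.3), KLF6 20.6%, JUN 18.8%, ERRFI1 17.5% and EGR1 0%, with an upper limit of 2.28%. At 100 µM, ERRFI1 made up 38.4% and 32.3%, IER3 17.1% and 19.7%, KLF6 12.3% and 12.8%, and EGR1 3.20% and 4.50%. At 10 µM, IER2 held 8 of the 17 counts in the first library and 2 of the 8 in the second.

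**Figure D4:**
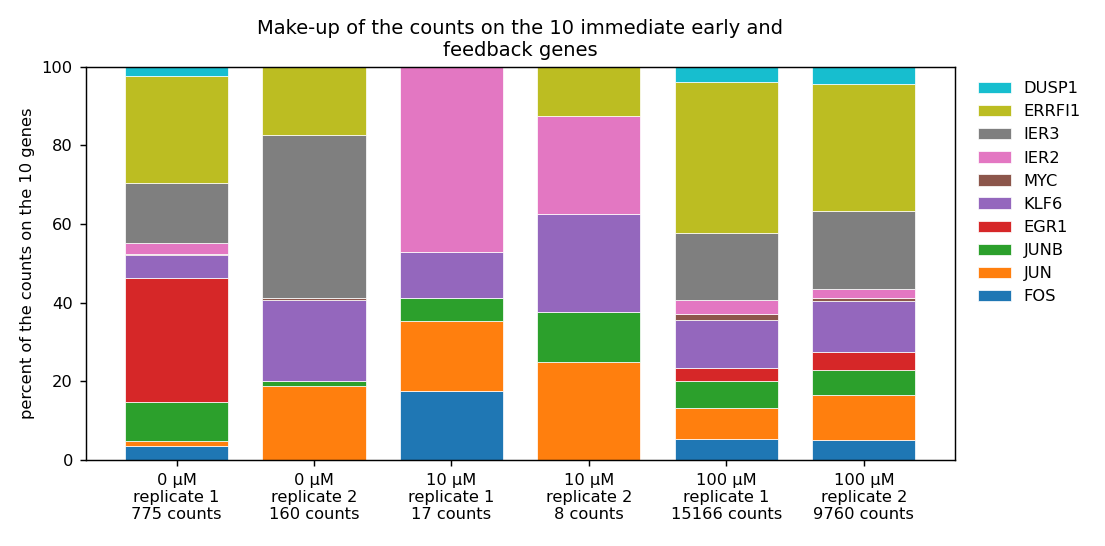
Make-up of the counts on the 10 genes in each library, as percent of those counts, in order of dose. Each colour is 1 gene. EGR1 takes 31.4% in control 1 and 0% in control 2, and ERRFI1 takes 38.4% and 32.3% at 100 µM.

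Per kilobase of exon, IER3, the shortest of the 10 at 1356 exonic bases, had the highest level in both controls and both 100 µM libraries. At 100 µM pooled, the order in nuclear CPM per kilobase was IER3 at 991, ERRFI1 at 638, JUNB at 275, JUN at 195, DUSP1 and KLF6 at 151 each, FOS at 119.5, EGR1 at 87.8, IER2 at 72.2 and MYC at 32.1. DUSP1 and KLF6 changed places between the 2 libraries, as did EGR1 and IER2, so those neighbours did not differ beyond their spread. In the pooled controls IER3 was at 474, EGR1 at 272, ERRFI1 at 201 and JUNB at 154, with the EGR1 and JUNB values coming mostly from control 1. In both 10 µM libraries IER2 was first, at 106 and 57.1.

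Other genes of the same response were described from 4 lists, which were drawn up with earlier results of these libraries known. Of their 96 genes, 47 were tested, and edgeR called 0 in each of the 3 comparisons. At an unadjusted 0.05 there were 8 of 47 for 10 µM against control, 11 for 100 µM against control and 23 for 100 µM against 10 µM, where 28.1%, 18.0% and 36.2% of all 3180 genes were. The DESeq2 Wald test called 3 in each. Without control 1 edgeR called 3, 2 and 25 of 47 tested in these comparisons, and without control 2 it called 11, 4 and 25 of 76. Among 23 other immediate early transcription factors, 12 were higher in both 100 µM libraries than in both controls and 2 lower. Among 27 signalling, RNA-binding and secreted products, 22 were higher and 2 lower. Among 22 other feedback genes, 14 were higher and 0 lower, and among 24 genes of the path from EGFR to ERK, 14 were higher and 0 lower. Over all 19597 nuclear genes with a count, 26.1% were higher in this way and 4.29% lower. Many of those genes are sparse, and the share was larger among tested genes. Of the tested genes in the 4 lists, in the same order, 7 of 12, 17 of 20, 5 of 8 and 6 of 7 were higher. In that order 2, 1, 0 and 0 were lower. Across the 3145 nuclear genes tested, 48.3% were higher and 9.57% lower. Genes counted at 100 µM alone, such as DUSP7 and DUSP10, passed the low-count filter through those libraries. For them being higher was set by the filter, so nothing is read from these counts of tested genes. The summed shares of the lists at 10 µM differed in direction from the controls. The path from EGFR to ERK took 0.0473% and 0.0349% of nuclear-encoded counts in control libraries, 0.180% and 0.193% at 10 µM, and 0.214% and 0.270% at 100 µM, so both 10 µM libraries were above both controls. The 10 µM shares rest on 44 and 22 counts, with 17 and 16 of the 24 genes at 0. HRAS held 15 of the 44, and MAP2K2 held 10 of the 22 and was at 0 in the first library. The other transcription factors took 0.298% and 0.229% in control libraries, 0.155% and 0.114% at 10 µM, and 0.471% in each library at 100 µM. The signalling, RNA-binding and secreted products took 0.323% and 0.317% in control libraries, 0.229% and 0.0964% at 10 µM, and 0.970% and 0.942% at 100 µM. The other feedback genes took 0.149% and 0.178% in control libraries, 0.0326% and 0.219% at 10 µM, so that the 10 µM libraries lay on either side of the controls, and 0.241% in each library at 100 µM.

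The transcription factors did not share 1 pattern, and values from here on are in nuclear CPM unless counts are named. ATF3, a stress-induced partner of JUN proteins, had 765 and 848 at 100 µM against 4.34 and 0 in the controls, a ratio of 227 on 1 control count, with an interval from 40.7 upward. Its fitted log2 fold change was 7.21 ± 2.06 (SE), with an edgeR adjusted p of 0.204. BHLHE40, a clock-linked repressor, had 602 and 449.8 at 100 µM against 278 and 18.3 in the controls. FOSL2, a FOS relative, had 796 and 945 at 100 µM, between its control values of 995 and 532, and was at 0 in both 10 µM libraries. ID2, an inhibitor of helix-loop-helix factors, had 388 and 265 at 100 µM, also between its control values of 665 and 147. JUND, the JUN relative held at a steady level in many cells, had 176 and 189 at 100 µM against 565 and 1156 in the controls, 3.75-fold lower when pooled, with an edgeR adjusted p of 0.391.

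Among the secreted and signalling products, AREG, which encodes the EGFR ligand amphiregulin, had 687 and 961 at 100 µM against 365 and 55.0 in the controls, with an edgeR adjusted p of 0.681. CCN2, a matricellular protein gene, had 1137 and 1009 at 100 µM against 265 and 91.7 in the controls. BTG1, an antiproliferative gene, had 1221 and 981 at 100 µM against 156 and 18.3 in the controls. For these 3 genes both 100 µM libraries were above both controls. TRIB1, a pseudokinase gene, had 259 and 202 at 100 µM, above control 1 at 143 and below control 2 at 2128. NFKBIA, the inhibitor of NF-κB, had 421 and 446 at 100 µM against 478 and 477 in the controls. The further ligand genes HBEGF, EREG and TGFA were chosen after their values were seen. HBEGF had 356 and 347 at 100 µM against 4.34 and 0 in the controls, and EREG had 34.9 and 62.6 at 100 µM and no count in the other 4 libraries. TGFA had 28.1 and 48.7 at 100 µM against 30.4 and 0 in the controls, a ratio of 1.47 whose interval, 0.690 to 3.72, includes no difference.

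The feedback genes named are phosphatases of the DUSP family. DUSP5 was above both controls in both 100 µM libraries, and DUSP6, DUSP16 and DUSP8 lay between the controls. DUSP2 was too sparse in the controls to be placed. DUSP5, a nuclear ERK phosphatase, had 895 and 830 at 100 µM against 169 and 18.3 in the controls, with an edgeR adjusted p of 0.447. DUSP6, the cytoplasmic ERK phosphatase, had 211 and 455 at 100 µM, between its control values of 556 and 0. DUSP16, a phosphatase of JNK and p38, had 140.5 and 63.4 at 100 µM, between its control values of 8.69 and 1211. DUSP8, which acts on the same kinases, had 45.5 and 46.4 at 100 µM, between 0 and 514 in the controls. DUSP2, a nuclear MAP kinase phosphatase, was not tested. It had 4.34 and 0 in control libraries, 0 and 877 at 10 µM, and 35.8 and 14.7 at 100 µM. Its 10 µM value is 10 counts in 1 library. Control 1 held 1 count, and 3 counts in control 2 would be worth 55.0, above both 100 µM values.

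In the path from EGFR to ERK, the genes also went different ways. MAP2K1, a kinase that phosphorylates ERK, had 1248 and 1294 counts at 100 µM against 3 and 2 counts in the controls, a ratio of 43.1 (18.4 to 133) in nuclear CPM, and its edgeR adjusted p was 0.218. ELK3, a transcription factor that ERK phosphorylates, had 292 and 447 at 100 µM against 69.5 and 55.0 in the controls. GRB2, the adaptor of the receptor, had 73.8 and 0 in control libraries, 245 and 351 at 10 µM, and 279 and 272 at 100 µM. It was above both controls at both doses, on 6 and 4 counts at 10 µM. HRAS, the small GTPase, had 143 and 18.3 in control libraries, 612 and 175 at 10 µM, and 50.4 and 37.9 at 100 µM. It was highest at 10 µM, on 15 and 2 counts there. Its fitted log2 fold change for 10 µM against control was 1.00 ± 1.64 (SE). MAP2K2, the partner of MAP2K1, had 26.1 and 36.7 in control libraries, 0 and 877 at 10 µM, and 124 and 55.6 at 100 µM. Its 10 µM value is 10 counts in 1 library. EGFR itself, also chosen after its values were seen, had 2 and 0 counts in control cells, 0 and 1 at 10 µM, and 295 and 231 at 100 µM.

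Likeness to the summed level of the 10 genes was measured as Pearson's r of log2 nuclear CPM, with 10 added, over the 6 libraries and 2739 genes. The 5 nearest were RPL21, a ribosomal protein gene, SLC6A8, the creatine transporter gene, KMT2A, a histone methyltransferase gene, TRIM33, a ubiquitin ligase gene, and CLDN4, a tight junction gene, at r from 0.997 to 0.999. All 5 were at 0 in both 10 µM libraries and had 2 to 6 counts in control 2, and RPL21 has many near-identical pseudogenes that make its counts uncertain. Within the 10, the r of each gene with the other 9 was highest for MYC, 0.931, and ERRFI1, 0.922. It was 0.891 for IER3, 0.867 for DUSP1, 0.854 for KLF6, 0.748 for JUNB, 0.663 for EGR1, 0.541 for FOS, 0.482 for JUN and -0.219 for IER2. These values are descriptions over libraries that share depth and dose and carry no test.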

How the data were processed

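Stranded, ribosomal RNA-depleted libraries were made from RNA of mitochondria isolated with a kit, per the labels' protocols. The deposited values are raw counts of reads per gene, 1 table per library, in which each gene's summed exon length in bases is the other deposited column used. The tools were FastQC, STAR, featureCounts and DESeq2 with GRCh38, per the submitters' processing notes, with no version. The annotation release, strand setting and treatment of shared reads are not given in the sources used here.

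Ensembl IDs were matched to symbols (56410 of 57500). Nuclear CPM divides a count by the library's counts on genes outside mitochondrial DNA, in Python 3.11.15 (pandas 2.3.3, scipy 1.17.1). Pooled ratios have 95% exact binomial intervals, and a group at 0 is set to 3 counts over the group. No fold is given where both groups are at 0, or where setting a group at 0 to 3 counts removes the difference. The main test was edgeR 4.0.16 (R 4.3.3): quasi-likelihood, filterByExpr, TMM, robust, 6 libraries in 1 model of group means, with Benjamini-Hochberg adjustment over all 3180 genes at 0.05. DESeq2 1.42.0 was an alternative. The edgeR fit alone was run on simulated counts with the same dispersion for every gene, and no result given here rests on that run. Replicate numbers were not used to pair libraries. The 10 genes and all lists were chosen with earlier results of these data known. Genes named from a list were its 5 highest in mean share of nuclear-encoded counts over the 6 libraries, and HBEGF, EREG, TGFA and EGFR were added after their values were seen. Promoters are RefSeq's, GRCh38.p14. Windows overlapping annotated exons were not printed.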

Additional observations from a re-analysis of the deposited data

How the results depend on the processing

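Counts of called genes moved with the fit, and the 10 genes were called in 0 of the settings tried for 100 µM against control. For 10 µM against control, 19 genes were called, 7 higher and 12 lower (7 and 8 by DESeq2's size factors, 0 and 7 by unscaled library sizes). The total was 7 by unscaled library sizes, 1 with nuclear genes only, 7 with no filter on low counts, 95 of 11953 tested with a mean of at least 5 CPM, 75 with the replicate block, 206 of the 458 genes tested with only the 4 libraries compared, 397 with the DESeq2 Wald test and 4 to 861 without 1 library. Of the 10 genes, 0 were called, against 2 at 5 CPM, 1 with the replicate block, 1 of the 2 tested with the 4 libraries, 2 with the Wald test and 0 to 4 of the 9 or 10 tested without 1 library. Of the 96 other genes, 0 were called, against 1 at 5 CPM, 1 of the 3 tested with the 4 libraries, 3 with the Wald test and 0 to 11 without 1 library. For 100 µM against control, 0 genes were called, against 3 with DESeq2 size factors, 22 with the replicate block, 205 with the Wald test and 0 to 204 without 1 library, and 0 of the 96, against 3 with the Wald test and 0 to 4 without 1 library. For 100 µM against 10 µM, 91 genes were called, 24 higher and 67 lower (8 and 83 by DESeq2's size factors, 42 and 86 by unscaled library sizes), against 0 with nuclear genes only, 3 with no filter, 291 at 5 CPM, 258 with the 4 libraries, 329 with the Wald test, 136 with the replicate block and 16 to 1272 without 1 library. The 2 calls among the 10 genes became 0 with DESeq2 size factors, nuclear genes only or no filter, and 0 to 8 without 1 library (7 without control 1, 8 without control 2). Of the 96, 0 were called, against 1 by unscaled library sizes, 9 at 5 CPM, 10 with the 4 libraries, 3 with the Wald test and 0 to 25 without 1 library. The cause of these moves was not tested. The difference in the summed share, in percentage points, kept its sign in every setting tried. For 10 µM minus control it was -0.245, against -0.283 without MALAT1 and NEAT1 in the denominator, -0.178 without ERRFI1 and -0.267 to -0.224 without 1 library. For 100 µM minus control it was 0.429, against 0.238 without ERRFI1 and 0.408 to 0.451 without 1 library. For 100 µM minus 10 µM it was 0.675, against 0.686 over all counts, 0.7002 without MALAT1 and NEAT1, 0.416 without ERRFI1 and 0.665 to 0.685 without 1 library. The 1 gene higher in both 10 µM libraries than in both controls became 0 with CPM of all counts and 1 to 2 without 1 library, and the 4 lower became 4 to 7. The 9 higher at 100 µM than in the controls became 9 to 10 and the 0 lower 0 to 1, and against 10 µM they were 9 and 0 to 1 (these settings were added after seeing the data). Of 401 single-gene settings, 354 kept direction and side of the threshold and 10 reversed in log2 fold change. For 10 µM against control these were IER2 at -0.57 without control 2 and -0.59 without the first 10 µM library (9.19 without control 1), and FOS at 7.44 without control 1 (-9.13 without the first 10 µM library). For 100 µM against control they were IER3 at -0.33 with DESeq2 size factors and -0.23 with the Wald test, JUNB at -0.050 without control 2 (4.12 without control 1), and EGR1 at 0.59 with the replicate block and 10.64 without control 1 (-2.48 without control 2). Between 100 µM and 10 µM it was IER2 at -0.49 with DESeq2 size factors and -0.77 with the Wald test. EGR1 and DUSP1 could give no value for 10 µM against control without control 1. Libraries of the same number did not deviate together (r of 0.00033, 0.0032 and -0.022). With few counts in several libraries, such an r cannot tell whether the numbers pair them. Depth limits the 10 µM values most, since 3 counts are worth 122 and 263 nuclear CPM there.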
